A study of Rattus norvegicus with 50 samples.

Results

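The renal medulla is the inner zone of the kidney. These results follow 176 genes whose RNA was much more abundant in medulla than in cortex of lean rats, out of 32545 gene identifiers (IDs) in the table. A gene was a member if its mean log2(FPKM + 0.5) was at least 2 higher in 5 lean medulla libraries than in 5 lean cortex libraries, and if its mean in lean medulla was at least 2 FPKM, the sequenced fragments per length of transcript and per size of library. Both thresholds were met by 178 IDs, of which the rule left out 2. The lean libraries therefore chose the members, and every value from them is a description without a test. The tests below use the 40 obese libraries alone.

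Total RNA was sequenced from both kidney zones of ZSF1 rats, with 5 libraries in each of 10 groups. In each tissue there were lean rats given vehicle, obese rats given vehicle, obese rats given enalapril at 10 mpk, and obese rats given MK-8722 at 1 mpk or at 10 mpk, where mpk is the dose unit of the labels. Treatment lasted 28 weeks in every group, and no lean group received a drug. The labels also give an age of 20 weeks, without saying at which point of the study. The obese ZSF1 rat is a model of type 2 diabetes with progressive kidney disease. Enalapril inhibits angiotensin converting enzyme, and MK-8722 activates all forms of the energy-sensing kinase AMPK. The labels number the libraries as replicates but do not tie each to an animal of its own, so the spread behind the p-values is that between libraries and may be technical.

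As background, the medulla holds the thin and thick limbs of the loop of Henle, the medullary collecting ducts, the vasa recta and lipid-rich interstitial cells. Its countercurrent arrangement builds the salt and urea gradient from which the collecting duct draws water under vasopressin, and its cells accumulate organic osmolytes to withstand that gradient. Blood flow and oxygen supply are low there, and prostaglandins made by collecting duct and interstitial cells regulate both flow and salt transport. The cortex holds the glomeruli and most proximal tubule, the segment that reabsorbs most of the filtrate. The deposited table names genes by Ensembl ID only, and none of the IDs matched the reference table used here. Members are therefore given by ID, their functions are not stated, and lists of tubule, vascular or interstitial genes could not be counted.

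The tissue labels of the obese libraries were checked with the members themselves and with a cortical counterpart, the 68 IDs that were at least 2 higher on the same scale in lean cortex. The median member stood between 3.23 and 3.85 on the log2(FPKM + 0.5) scale in the 20 obese medulla libraries and between 0.66 and 2.06 in the 20 obese cortex libraries. The 2 ranges did not overlap. The median of the cortical counterpart ran from 1.22 to 3.12 in obese medulla and from 4.44 to 5.11 in obese cortex, again without overlap. In the highest-dose medulla group it spread widest, from 1.22 to 2.90, with a mean of 2.05 ± 0.72 (SD, n = 5) against 2.45 ± 0.17 (n = 5) under vehicle. The relative depth of the 50 libraries, read from the steps between low FPKM values, ran from 0.599 to 1.53. It was lower in obese vehicle cortex (mean 1.02) than in cortex under enalapril (1.25) or MK-8722 at 10 mpk (1.34). Across the 20 obese cortex libraries the members' median was lower where relative depth was higher (Pearson r -0.75, Spearman rho -0.77) and where the cortical counterpart was higher (r -0.73, rho -0.67). These are descriptions over libraries that share 4 treatment groups. Across the 20 obese medulla libraries the corresponding r values were -0.03 and -0.45.

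**Figure D1:**
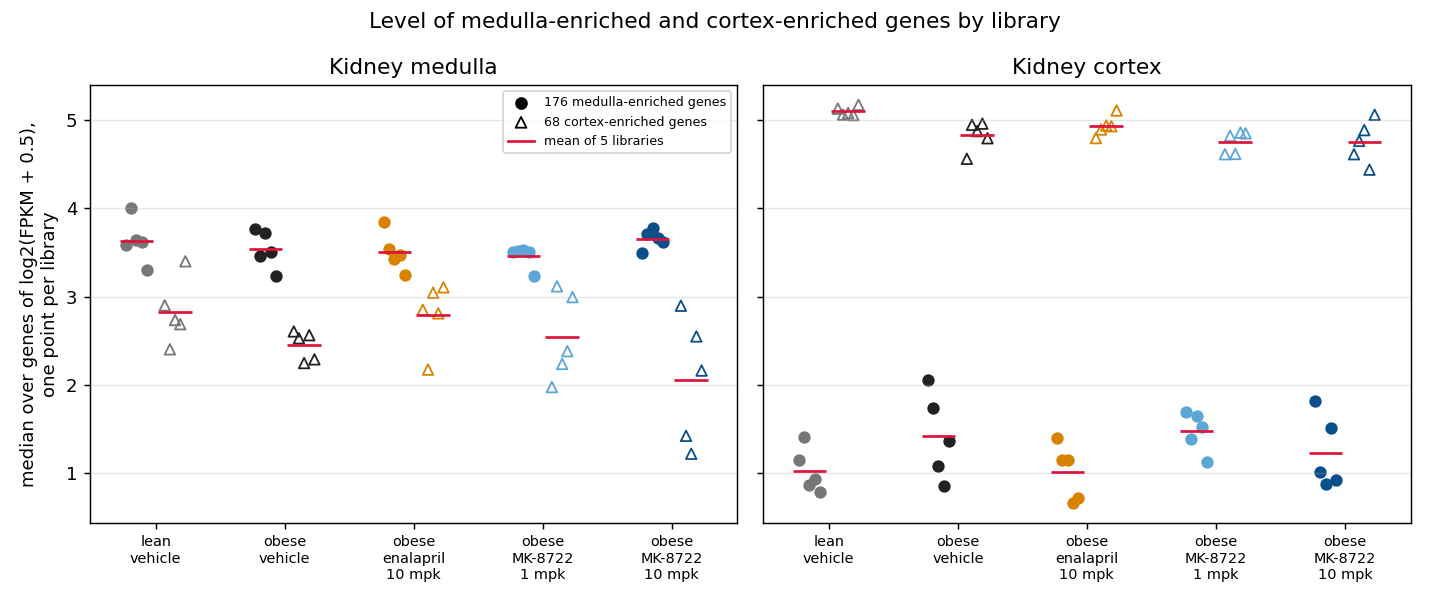
Median log2(FPKM + 0.5) of the 176 medulla-enriched genes (filled circles) and of the 68 cortex-enriched genes (open triangles) in each of the 50 libraries, by group, with medulla on the left and cortex on the right; red bars are means of 5 libraries. The members lie between 3.23 and 3.85 in obese medulla and between 0.66 and 2.06 in obese cortex, while the cortex-enriched genes reach down to 1.22 in medulla treated with MK-8722 at 10 mpk.

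In lean rats, where they were selected, the members differed between the tissues by a median of 2.46, with quartiles of 2.21 and 2.93. The largest lean difference was 5.90 and 42 members differed by at least 3. Just inside the threshold were ENSRNOG00000037853 at 2.01, with 18.1 FPKM in lean medulla and 4.40 FPKM in lean cortex, ENSRNOG00000014385 at 2.01 and ENSRNOG00000015727 at 2.01. Just outside it were ENSRNOG00000005291 at 2.00, with 7.43 FPKM and 1.49 FPKM, ENSRNOG00000004626 at 2.00 and ENSRNOG00000000906 at 1.99. The IDs on either side of the threshold were nearly alike.

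In obese rats most members were still higher in medulla than in cortex. The median difference over all 176 members was 1.70 under vehicle, 2.22 under enalapril, 1.67 under MK-8722 at 1 mpk and 2.15 under MK-8722 at 10 mpk. Over all genes tested, the median difference was between 0.12 and 0.24 in the 4 groups. For the cortical counterpart it was -2.301, -2.181, -2.115 and -2.531 in the same order, and -2.358 in lean rats. Its part in the members' differences was not tested. At least 2 units were kept by 63 members under vehicle, 102 under enalapril, 55 at the lower and 108 at the higher MK-8722 dose. The difference was below 0 for 4, 1, 4 and 3 members in the same order. In every one of the 4 groups 51 members reached 2, and 62 members reached 2 in none. Some fall from the lean values follows from choosing genes on those values, and its share was not tested. When the same 2 thresholds were set afresh in each obese group, 90, 165, 82 and 172 IDs met them. Of the 90 under vehicle, 62 were members (68.9% of those IDs and 35.2% of the members), and of the 172 at the higher dose, 108 were members (62.8% and 61.4%).

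**Figure D2:**
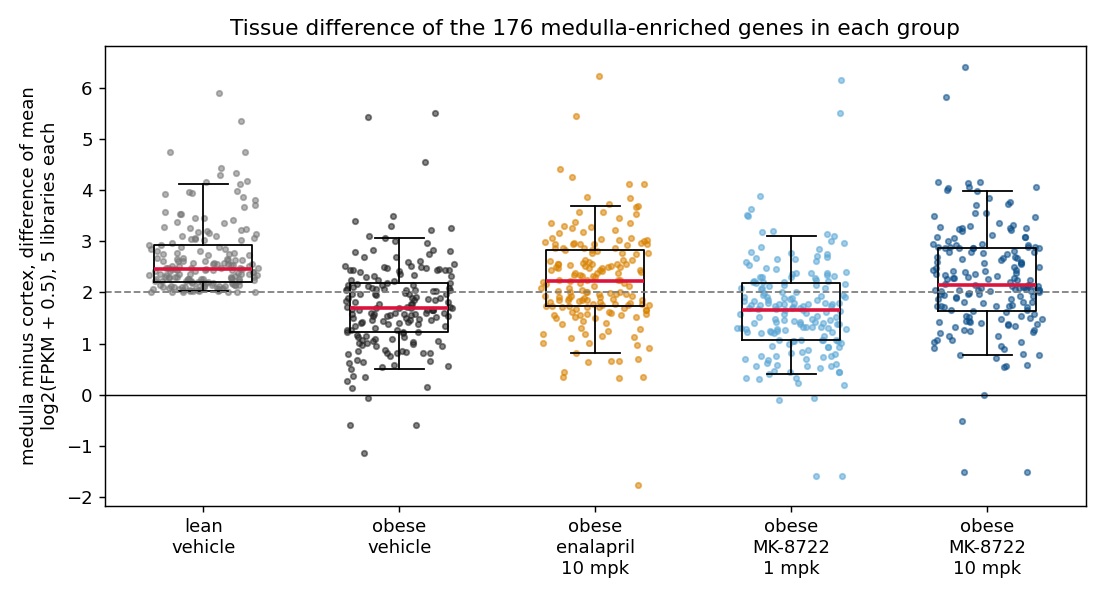
Difference between medulla and cortex in mean log2(FPKM + 0.5) for each of the 176 members (points), in lean rats and in the 4 obese groups, 5 libraries per tissue and group. Boxes give quartiles with the median in red, whiskers the 5th to 95th percentiles, and the dashed line the selection threshold of 2, which all members exceed in lean rats by construction. The medians are 2.46 in lean rats and 1.70, 2.22, 1.67 and 2.15 in the obese groups from left to right.

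Of the 176 members, 171 passed the filter on low values (at least 1 FPKM in at least 5 of the 40 obese libraries). Medulla was higher for 159 of the 171 under vehicle, where 33.0% of 14485 tested genes were called higher in medulla and 11.1% lower (limma, Benjamini-Hochberg adjusted p under 0.05). Under enalapril 164 were higher, beside 39.5% of tested genes higher and 9.48% lower. At 1 mpk of MK-8722 the count was 156, beside 19.6% and 10.6%, and at 10 mpk it was 164, beside 34.5% and 10.6%. No member was called lower in medulla in any of the 4 obese groups by limma, and at an unadjusted p under 0.05 the count was also 0. In cortex alone 125 members reached 1 FPKM in at least 5 of the 20 obese libraries, so the others passed the filter with the help of their medulla values. The counts describe how the rule carried over to obese rats. Without any filter the counts over all 176 were 160, 168, 155 and 167.

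The member with the firmest difference was ENSRNOG00000056021. Its 5 obese vehicle medulla libraries stood at 19.7, 20.9, 24.3, 26.2 and 28.7 FPKM, and the 5 cortex libraries were listed at 0, 0, 0, 0.0832 and 0.0895 FPKM. Every medulla value was far above every cortex value. The difference on the log2(FPKM + 0.5) scale was 5.51 ± 0.17 (SE; limma adjusted p = 1.6e-24), a size set in part by the added 0.5 because the cortex values were near 0. It was 5.45 under enalapril, 5.51 at 1 mpk and 5.82 at 10 mpk of MK-8722.

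A second gene, ENSRNOG00000061376, was the most abundant in medulla of the pair. Obese vehicle medulla held 52.7, 76.8, 82.0, 87.0 and 114 FPKM and obese vehicle cortex 0.437, 0.511, 1.10, 3.03 and 3.67 FPKM, again without overlap, and 2 of the cortex libraries were clearly above the other 3. The difference was 5.44 ± 0.31 (SE; limma adjusted p = 2.75e-15). In the other obese groups it was 6.22 under enalapril, 6.15 at 1 mpk and 6.41 at 10 mpk. In medulla at 10 mpk the values were 96.0, 97.2, 100.3, 114 and 130.1 FPKM.

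Under vehicle 12 of the 171 members were not called between the tissues. Of these 12, 5 were called higher in medulla under enalapril, 0 at 1 mpk and 5 at 10 mpk of MK-8722. The following ones were picked after their values were seen. ENSRNOG00000012181 had 37.6, 48.4, 51.7, 53.1 and 54.2 FPKM in lean medulla, against 19.9, 20.0, 21.4, 23.6 and 24.1 FPKM in obese vehicle medulla and 12.5, 13.7, 19.2, 21.8 and 26.2 FPKM in obese vehicle cortex. The obese vehicle tissues overlapped, and the difference of 0.26 ± 0.20 (SE) did not pass (limma adjusted p = 0.29). At 10 mpk of MK-8722 the same gene differed by 1.22 ± 0.20 (limma adjusted p = 6.04e-06). Tested directly, the change of this difference from vehicle to 10 mpk did not pass (limma adjusted p = 0.279). From vehicle to 10 mpk the gene changed by 0.18 in medulla (limma adjusted p = 0.485) and by -0.78 in cortex (limma adjusted p = 0.0152).

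ENSRNOG00000017424 also fell short under vehicle, with 0.551, 1.35, 1.59, 2.23 and 2.53 FPKM in obese medulla beside 0.627, 1.27, 1.32, 1.70 and 1.96 FPKM in obese cortex. The difference was 0.15 ± 0.24 (SE, limma adjusted p = 0.625) and 1.42 ± 0.24 at 10 mpk of MK-8722 (limma adjusted p = 9.22e-06). The direct test of that change between vehicle and 10 mpk did not pass (limma adjusted p = 0.175). ENSRNOG00000015518 overlapped between the tissues under vehicle, with 4.90, 8.37, 10.9, 15.4 and 15.9 FPKM in medulla and from 7.84 to 14.7 FPKM (median 11.7) in cortex. Its difference was -0.06 ± 0.31 (SE; limma adjusted p = 0.884) and -0.51 ± 0.31 at 10 mpk (limma adjusted p = 0.187). ENSRNOG00000057077 varied between libraries of one group more than between tissues, from 0.0021 to 19.0 FPKM in obese vehicle medulla and from 1.22 to 30.1 FPKM in obese vehicle cortex. ENSRNOG00000047557 and ENSRNOG00000049536 carried the same value in 49 of the 50 libraries, including all 40 obese ones, and count as 2 members though they cannot be told apart.

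Set against lean rats, the members were lower in obese medulla, which is given as a description because the lean libraries chose them. The median member was 0.73 lower under vehicle than in lean medulla, while the median of all tested genes was 0.37 higher. Of the 176 members, 128 were lower and 48 higher, 76 of them at least 2-fold lower and 15 at least 2-fold higher. In these tissue extracts, fewer cells of a type and less RNA per cell cannot be told apart. With enalapril the median change was -0.56, with MK-8722 at 1 mpk -0.84 and at 10 mpk -0.53. In cortex the median member changed by 0.12 under vehicle, with 104 higher and 72 lower, and by -0.04, 0.16 and 0.04 in the treated groups. The median of all tested genes in cortex changed by 0.31 under vehicle, more than the median member. FPKM is relative to the size of a library, and the weight of the most abundant IDs differed. The 6 highest IDs of each library held a mean of 62.0% of its FPKM sum in lean medulla and 54.0% under obese vehicle. In cortex the means were 61.6% and 53.2%. The part of this in the changes from lean was not tested.

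The widest movements, picked after their values were seen, ran in opposite directions. ENSRNOG00000057928 stood at 28.4, 31.5, 32.7, 36.9 and 40.2 FPKM in lean medulla and at 1.15, 1.34, 1.58, 3.37 and 5.24 FPKM in obese vehicle medulla, with no overlap, a change of -3.67 on the log2(FPKM + 0.5) scale. ENSRNOG00000043451 went the other way, from 192, 211, 271, 275 and 290.3 FPKM in lean medulla to 4097, 4302, 5058, 5519 and 7622 FPKM in obese vehicle medulla, a change of 4.40. In cortex the same gene went from 44.2, 44.9, 45.6, 50.7 and 58.2 FPKM to 1394, 2233, 3967, 4049 and 4346 FPKM, a change of 5.91. The difference between its tissues under obese vehicle was 0.82 ± 0.30 (SE; limma adjusted p = 0.0263).

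A number of members were higher in obese medulla at 10 mpk of MK-8722 than under vehicle. Of 171 tested members 25 rose and 2 fell relative to obese vehicle, which is 14.6% and 1.17% of them, beside 1.28% higher and 12.5% lower among all 14089 genes tested in medulla (limma, Benjamini-Hochberg adjusted p under 0.05). The median member changed by 0.24 and the median tested gene by -0.18, on the log2(FPKM + 0.5) scale. Rescaling the libraries so that their median ratios were equal brought the median tested gene to 0.00, the median member to 0.42, and the calls to 29 higher and 0 lower, beside 2.54% and 1.39% of tested genes. The median of the cortical counterpart stood at 2.05 in these medulla libraries and at 2.45 under vehicle, and its part in the result was not tested.

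The firmest rise was in ENSRNOG00000021102, which was chosen after its values were seen. Under vehicle its medulla libraries stood at 19.4, 21.0, 22.1, 23.5 and 24.9 FPKM, and at 10 mpk at 41.0, 43.3, 43.8, 46.1 and 51.7 FPKM. The lowest treated library was above the highest vehicle library. Its change was 1.01 ± 0.11 (SE; limma adjusted p = 2.69e-05). In lean medulla it stood at 35.0, 39.5, 40.4, 43.5 and 51.5 FPKM.

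ENSRNOG00000013290 rose by a like amount. Obese vehicle medulla held 4.43, 5.56, 7.02, 7.22 and 7.41 FPKM and medulla at 10 mpk 10.8, 13.8, 13.9, 15.5 and 19.4 FPKM, without overlap. The change was 1.15 ± 0.21 (SE; limma adjusted p = 0.00396). Lean medulla had 7.63, 11.2, 12.7, 15.9 and 16.3 FPKM, which overlapped the treated values.

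ENSRNOG00000037374 had the largest rise among the called members whose groups did not overlap, from 7.99, 11.4, 20.6, 21.4 and 25.3 FPKM to 27.9, 35.1, 38.9, 44.0 and 70.2 FPKM. One treated library was well above the rest. The change was 1.34 ± 0.43 (SE; limma adjusted p = 0.0458), and the call was kept in 2 of the 10 fits that left out 1 library. It was lost without vehicle replicate 4, 5, 6 or 7 and without treated replicate 1, 2, 3 or 5, with adjusted p from 0.0536 to 0.125. ENSRNOG00000028985 rose further, by 1.71 ± 0.36 (SE; limma adjusted p = 0.00867), but 1 of its treated libraries lay within the vehicle range, and it is named after its values were seen.

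How many members were called at 10 mpk in medulla depended on single libraries. Without treated replicate 1 there were 16, without replicate 3 there were 18, and without replicate 5 there were 15. Leaving out vehicle replicate 4, 6 or 7 gave 15, 14 and 10. In every one of the 10 such fits 8 members were called, all of them higher, among them ENSRNOG00000001128, ENSRNOG00000011424, ENSRNOG00000013290, ENSRNOG00000021102 and ENSRNOG00000028985. A fit of the 2 groups alone called 13, and adding relative depth to the model 7. The 10 mpk medulla group has no replicate 7, which was the lowest vehicle medulla library by the members' median (3.23).

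**Figure D3:**
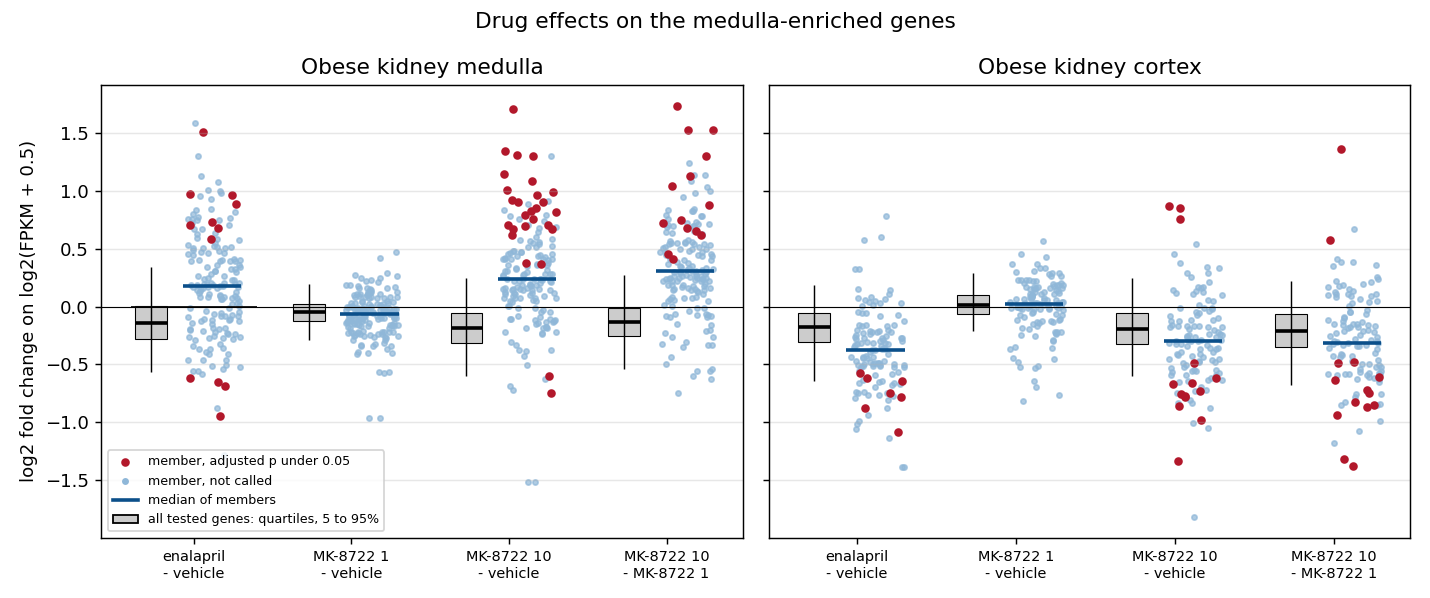
Log2 fold changes on the log2(FPKM + 0.5) scale for the members (points, red where the limma adjusted p is under 0.05; blue bar, median of members) beside all tested genes (grey box, quartiles; black line, median; whiskers, 5th to 95th percentiles), for 4 contrasts between obese groups in medulla (left, 171 members) and cortex (right, 125 members). At 10 mpk of MK-8722 the median member lies above the median gene in medulla (0.24 against -0.18) and below it in cortex (-0.30 against -0.19). With relative depth as a term, not drawn here, the median member in cortex changed sign.

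In obese medulla enalapril raised 8 of 171 and lowered 4, which is 4.68% and 2.34%, beside 0.532% higher and 5.03% lower among all tested genes (limma, Benjamini-Hochberg adjusted p under 0.05). The median member changed by 0.18 and the median tested gene by -0.14. The median of the cortical counterpart averaged 2.80 in these libraries and 2.45 under vehicle, and its part was not tested. No member was called in every fit that left out 1 library: the count was 0 without enalapril replicate 2, 5 or 7 and without vehicle replicate 4, 6 or 7. It was 5 without enalapril replicate 6, 22 without enalapril replicate 3 and 35 without vehicle replicate 5. After rescaling by median ratios 3 were higher and 1 lower, beside 0.313% and 0.263% of tested genes.

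The largest called rise under enalapril was that of ENSRNOG00000015518. Obese vehicle medulla had 4.90, 8.37, 10.9, 15.4 and 15.9 FPKM, and enalapril medulla 19.8, 30.4, 32.8, 34.2 and 36.9 FPKM, without overlap. The change was 1.51 ± 0.31 (SE; limma adjusted p = 0.032). Lean medulla stood higher than both, at 39.6, 42.2, 44.5, 55.4 and 59.8 FPKM. ENSRNOG00000045743 went from 9.90, 15.8, 18.0, 27.8 and 30.7 FPKM to 30.7, 31.3, 39.2, 42.9 and 46.2 FPKM, where the lowest treated value barely cleared the highest vehicle value. Its change was 0.97 ± 0.22 (SE; limma adjusted p = 0.0352).

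ENSRNOG00000043451, the member with the largest increase over lean medulla, fell under enalapril. Its medulla values were 2250.2, 2475, 2849, 2899 and 3042 FPKM, all below the vehicle range that began at 4097 FPKM. The change was -0.95 ± 0.20 (SE; limma adjusted p = 0.032). ENSRNOG00000010694 fell from 13.9, 14.8, 16.4, 16.5 and 17.4 FPKM to 7.99, 9.18, 9.62, 10.5 and 11.2 FPKM, without overlap, by 0.68 on the log2(FPKM + 0.5) scale (limma adjusted p = 0.0381). All 4 genes lost the call without the 6 libraries that brought the count to 0, with adjusted p up to 0.131.

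MK-8722 at 1 mpk left no member past the threshold in medulla or cortex. In medulla, limma called 0 of 171 members and 0% of all tested genes relative to obese vehicle. At an unadjusted p under 0.05 there were 2 members, and 479 of all tested genes (3.40%). The changes of single members ran from -0.96 to 0.48, with a median SE of 0.21. These p-values do not show that the lower dose acted like vehicle.

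In cortex limma likewise called 0 of 125 tested members and 0% of tested genes at 1 mpk. Unadjusted p-values were under 0.05 for 3 members and for 430 of all tested genes (3.19%). The changes of members lay between -0.82 and 0.56, with a median SE of 0.28.

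The 2 doses differed from one another in medulla. Of 171 members, 14 were higher at 10 mpk than at 1 mpk and 0 lower, beside 0.575% of tested genes higher and 1.97% lower (limma, Benjamini-Hochberg adjusted p under 0.05). At an unadjusted p under 0.05 there were 66 higher and 5 lower, beside 3282 of all tested genes (23.3%). The median member differed by 0.31 and the median tested gene by -0.13.

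ENSRNOG00000028985 stood at 0.701, 1.33, 1.46, 1.83 and 1.86 FPKM with 1 mpk and at 2.43, 3.48, 6.47, 6.89 and 15.8 FPKM with 10 mpk. The groups did not overlap, and the difference was 1.74 ± 0.36 (SE; limma adjusted p = 0.0236). Lean medulla held 18.9, 21.6, 21.9, 25.4 and 27.1 FPKM, above all 20 obese medulla values. ENSRNOG00000033830 had 3.21, 6.65, 6.69, 6.75 and 8.60 FPKM with 1 mpk and 12.2, 12.4, 21.0, 24.2 and 28.1 FPKM with 10 mpk, a difference of 1.53 ± 0.37 (SE; limma adjusted p = 0.042).

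The count of 14 fell without most single libraries. It was 2, 3 and 4 without replicate 1, 3 or 5 of the higher dose, and 5, 4, 1 and 3 without replicate 1, 4, 6 or 7 of the lower dose. It was 29 without replicate 6 of the higher dose. The higher dose has no replicate 7, which was the lowest library of the lower dose by the members' median (3.23). ENSRNOG00000028985 lost the call without replicate 1, 3 or 5 of the higher dose or replicate 6 of the lower, and ENSRNOG00000033830 without those and replicate 1, 4 or 7 of the lower. ENSRNOG00000021102 alone was called in all 10 fits, with a difference of 0.72 ± 0.11 (SE; limma adjusted p = 0.00203).

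**Figure D4:**
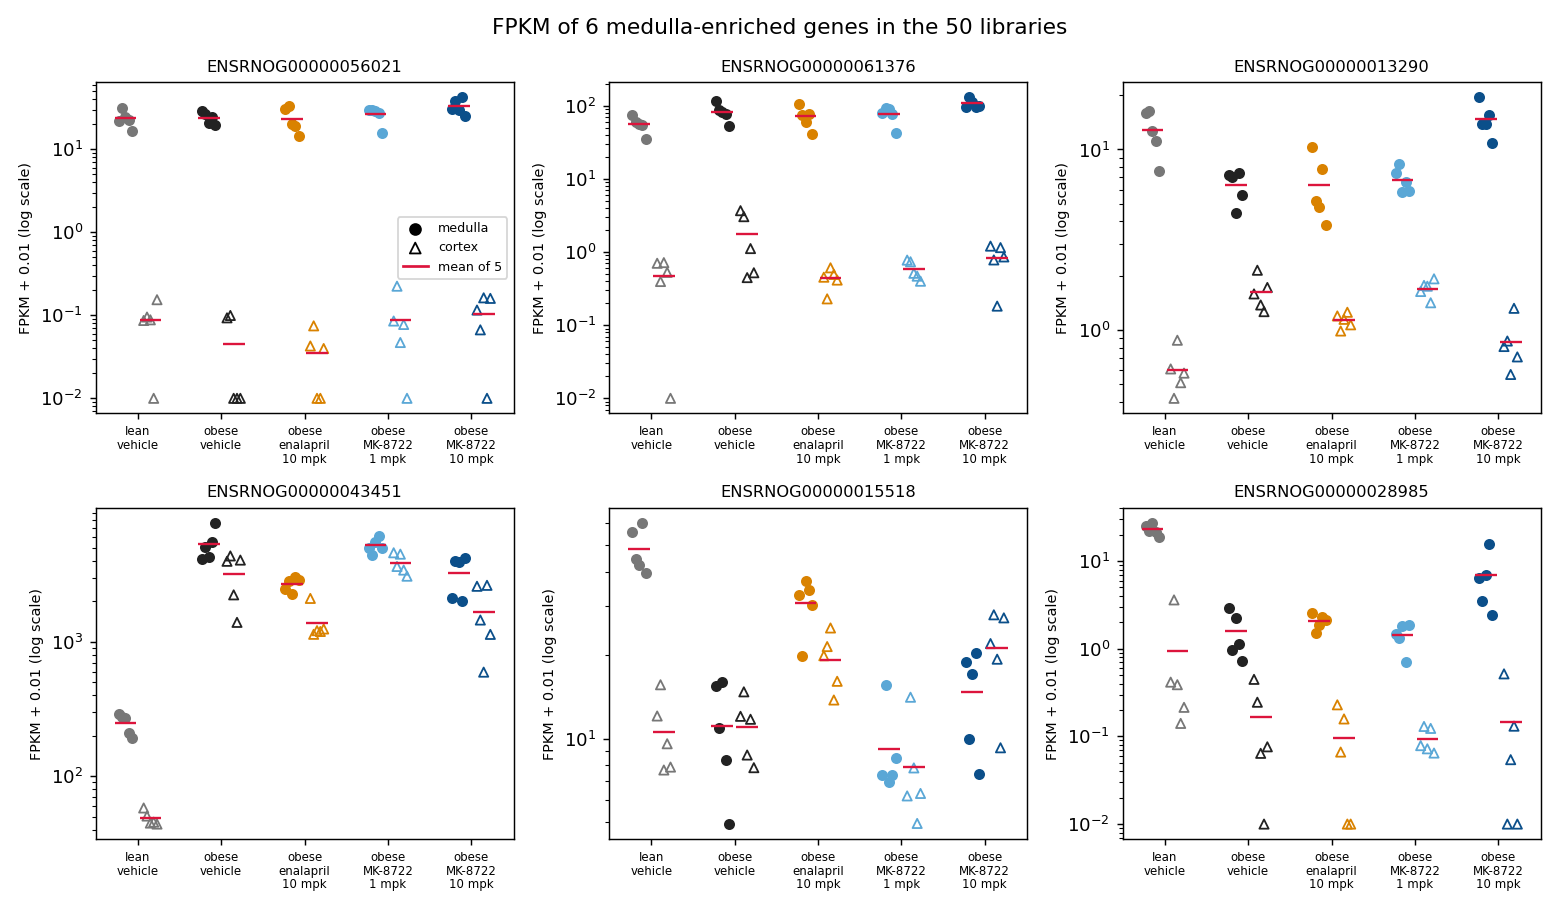
FPKM of 6 members in each of the 50 libraries (log axis, 0.01 added so that values listed at 0 can be drawn); filled circles are medulla, open triangles cortex, red bars means of 5. ENSRNOG00000056021 and ENSRNOG00000061376 keep their tissue difference in every group, ENSRNOG00000043451 is high in both tissues of all obese groups, and ENSRNOG00000013290 has its highest obese medulla mean and its lowest obese cortex mean at 10 mpk of MK-8722.

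Most members were low in cortex, and 51 of the 176 did not reach 1 FPKM in 5 of the 20 obese cortex libraries. At 10 mpk of MK-8722, 3 of the other 125 rose and 11 fell relative to obese vehicle, or 2.40% and 8.80%, beside 1.72% higher and 19.1% lower among 13486 tested genes (limma, Benjamini-Hochberg adjusted p under 0.05). The median member changed by -0.30 and the median tested gene by -0.19. Same-numbered libraries of these 2 groups deviated together, and with the replicate number as a block 3 rose and 21 fell. After rescaling by median ratios 6 rose and 4 fell, beside 3.31% and 2.59% of tested genes.

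Depth differed between these groups, with a mean relative depth of 1.34 at 10 mpk and 1.02 under vehicle. The median of the cortical counterpart averaged 4.75 and 4.83. With relative depth as a term 2 members were called, both higher, and the median member changed by 0.21, opposite in sign to the value without the term. With depth and the block together 0 were called. In the labels 8 cortex libraries carry numbers of a separate, higher range, 3 of them in this group and 1 under vehicle, and without them 2 members were called. The count was 5 without treated replicate 5 and without vehicle replicate 1 or 2, 6 without treated replicate 7, and 7 without treated replicate 4 or vehicle replicate 6. It was 21 without vehicle replicate 5.

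ENSRNOG00000001128 was the member that rose in cortex with no overlap between groups, from 1.11, 1.17, 1.51, 1.82 and 1.88 FPKM to 2.31, 2.49, 2.87, 3.05 and 3.57 FPKM. The change was 0.76 ± 0.21 (SE; limma adjusted p = 0.0168), and it was lost without treated replicate 5 (adjusted p = 0.055). In medulla the same gene rose by 1.08 ± 0.24 (SE; limma adjusted p = 0.0102). ENSRNOG00000001777, ENSRNOG00000013290 and ENSRNOG00000017424 were the 3 members lower in cortex in every fit that left out 1 library. They were chosen by that count after their values were seen. ENSRNOG00000017424 stood at 0.627, 1.27, 1.32, 1.70 and 1.96 FPKM under vehicle and at 0.340, 0.346, 0.436, 0.693 and 0.773 FPKM at 10 mpk, with 2 treated libraries inside the vehicle range and a change of -0.86 ± 0.20 (SE; limma adjusted p = 0.00733).

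Between the doses in cortex, 2 of 125 members were higher and 12 lower at 10 mpk than at 1 mpk, beside 1.84% and 21.9% of tested genes (limma, Benjamini-Hochberg adjusted p under 0.05). After rescaling 4 were higher and 5 lower, beside 3.98% and 3.02%. ENSRNOG00000043451 had 3074, 3412, 3629.7, 4481 and 4589 FPKM at 1 mpk and 595, 1135, 1451, 2586 and 2628 FPKM at 10 mpk, without overlap, a difference of -1.38 ± 0.36 (SE; limma adjusted p = 0.0164). ENSRNOG00000014166 had 11.2, 13.5, 14.2, 14.9 and 17.3 FPKM and 2.31, 3.96, 4.59, 9.11 and 10.7 FPKM in the same order, a difference of -1.32 ± 0.34 (SE; limma adjusted p = 0.0152). Both lost the call without replicate 5 of the higher dose, at adjusted p of 0.0523 and 0.051. ENSRNOG00000001128 was higher by 0.58 ± 0.21 (SE; limma adjusted p = 0.0476), a call kept in 1 of 10 fits that left out 1 library, the one without replicate 2 of the lower dose. The other higher member, ENSRNOG00000015518, had 4.93, 6.20, 6.33, 7.82 and 14.1 FPKM at 1 mpk and from 9.25 to 27.9 FPKM at 10 mpk, where only the lowest library lay within the range of the lower dose. Its difference was 1.37 ± 0.28 (SE; limma adjusted p = 0.00701), and it was called in all 10 fits. So were ENSRNOG00000012181, with a difference of -0.85 ± 0.21 (SE; limma adjusted p = 0.0113), and ENSRNOG00000013290, with a difference of -0.72 ± 0.15 (SE; limma adjusted p = 0.00514). These 3 were chosen by that count after their values were seen.

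The cortex count for the doses was 3, 6 and 8 without replicate 5, 7 or 4 of the higher dose and 6, 7 and 9 without replicate 1, 4 or 6 of the lower. It was 28 and 30 without replicate 2 or 6 of the higher dose. With relative depth as a term it was 1.

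Enalapril lowered 7 of 125 members in cortex and raised 0, or 5.60%, beside 3.80% lower and 0.141% higher among tested genes (limma, Benjamini-Hochberg adjusted p under 0.05). At an unadjusted p under 0.05 the count was 42 lower and 1 higher, beside 4417 of all tested genes (32.8%). ENSRNOG00000038896 went from 1.55, 1.71, 1.81, 2.62 and 2.82 FPKM to 0.535, 0.571, 0.685, 0.794 and 0.968 FPKM, without overlap, by -1.09 ± 0.24 (SE; limma adjusted p = 0.0435). ENSRNOG00000015514 went from 2.92, 3.24, 4.92, 5.03 and 5.51 FPKM to 1.62, 1.78, 2.14, 2.17 and 2.75 FPKM, also without overlap, by -0.88 ± 0.21 (SE; limma adjusted p = 0.0459). The count and both genes' calls were lost without enalapril replicate 2, 4, 6 or 7 and without vehicle replicate 1, 2 or 6. It was 17 without enalapril replicate 1 or vehicle replicate 3, and 36 without vehicle replicate 5. After rescaling 0 were called, beside 0.0745% of tested genes higher and 0.149% lower, and with relative depth as a term also 0.

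Whether a drug acted differently in the 2 tissues was tested directly, as the effect in medulla minus the effect in cortex over the 40 obese libraries. For MK-8722 at 10 mpk, 2 of 171 members passed, both more positive in medulla, beside 0.0414% of 14485 tested genes more positive and 0.0967% more negative (limma, Benjamini-Hochberg adjusted p under 0.05). Of the 125 members tested in both tissues, 68 were higher in medulla and lower in cortex at this dose, 33 lower in both and 23 higher in both, which is 54.4%, 26.4% and 18.4%. Most of these signs belong to members that did not pass a test. Over the 13293 genes tested in both tissues the shares were 9.76%, 72.7% and 7.67%. The cortex direction turned with relative depth as a term, where the median member changed by 0.21. The median member's difference in effect was 0.50, against 0.01 over all tested genes, with a range over fits that left out 1 library from 0.33 to 0.63. The median was -0.14 with the replicate number as a block.

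ENSRNOG00000013290 rose in medulla as given above, while its cortex values went from 1.25, 1.37, 1.58, 1.71 and 2.13 FPKM under vehicle to 0.558, 0.700, 0.801, 0.860 and 1.31 FPKM at 10 mpk. All but 1 of the treated cortex libraries lay below the vehicle range. The change in cortex was -0.66 ± 0.15 (SE; limma adjusted p = 0.00555), and the difference between the tissues' effects was 1.81 ± 0.25 (SE; limma adjusted p = 8.89e-05).

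ENSRNOG00000011424, the other called member, had 2.14, 2.71, 2.88, 3.09 and 3.94 FPKM in vehicle medulla and 3.77, 4.80, 5.59, 6.74 and 7.56 FPKM in medulla at 10 mpk, with the lowest treated value inside the vehicle range. In cortex it had 0.552, 0.702, 0.986, 1.15 and 1.55 FPKM and 0.254, 0.289, 0.387, 0.448 and 1.02 FPKM in the same order, where the groups overlapped. The change was 0.83 ± 0.17 in medulla and -0.61 ± 0.21 in cortex, and the difference was 1.44 ± 0.27 (SE; limma adjusted p = 0.00593). Both genes were called in all 20 fits that left out 1 library, where the count ran from 2 to 5. It was 3 or more without vehicle medulla replicate 3 (4) or 5 (5), vehicle cortex replicate 5 (3), treated medulla replicate 2 (3) or 6 (3) and treated cortex replicate 2 (4) or 6 (3).

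With the replicate number as a block, 0 members were called for this difference. Among the pairs of groups it joins, same-numbered libraries deviated together in 2, treated with vehicle cortex and treated medulla with treated cortex.

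**Figure D5:**
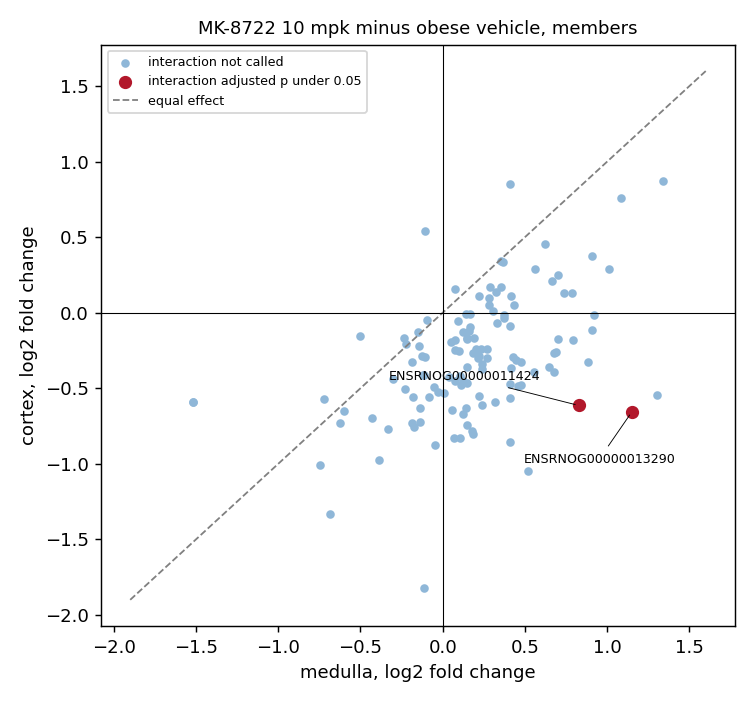
Log2 fold change of MK-8722 at 10 mpk against obese vehicle in medulla (horizontal axis) and in cortex (vertical axis), on the log2(FPKM + 0.5) scale, for the 125 members tested in both tissues; the dashed line marks equal effects. Of these, 114 (91.2%, beside 53.0% of all genes tested in both tissues) lie below the line, and the 2 red points, ENSRNOG00000013290 and ENSRNOG00000011424, have a limma adjusted p under 0.05 for the difference.

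For enalapril limma called 0 of 171 members for a difference between the tissues, beside 0.00690% of tested genes more positive in medulla and 0% more negative. At an unadjusted p under 0.05 there were 32 members, all more positive in medulla, beside 635 of all tested genes (4.38%). The median difference of members was 0.52 against 0.06 over all tested genes. Without vehicle cortex replicate 3 the count was 1. The lowest adjusted p of a member was 0.359, that of ENSRNOG00000021102, named for that p, with a difference of 0.88 ± 0.19 (SE).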

How the data were processed

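Total RNA of kidney cortex and medulla was depleted of ribosomal RNA and made into stranded libraries, per the labels' protocols. The authors deposited 1 table of FPKM values for the 50 libraries, per the file headers. For the aligner, annotation and genome build, nothing was given in the sources used here. The table holds no read counts. Each library's relative depth was read from the most frequent ratios of low values between libraries. After scaling by it, 93.0% of 56857 low values lay within 0.1 of a whole multiple of their gene's smallest value. The smallest values count among these, and that each stands for 1 read is assumed. No 2 libraries were identical.

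Values were analysed as log2(FPKM + 0.5) with limma 3.58.1 in R 4.3.3 (trend and robust options), so a fold change understates that of low genes. Genes with at least 1 FPKM in at least 5 libraries of a fit were tested: 20 obese libraries per tissue, or all 40 for tissue differences. Benjamini-Hochberg adjustment ran over all tested genes, at 0.05. The fits were also tested on simulated data, and those results are not given here. The members, comparisons and rules were chosen with earlier results of these data known. Because no gene symbol could be matched, each comparison names at most 2 rises and 2 falls: the largest changes among called members whose groups did not overlap and whose higher mean was at least 2 FPKM. IDs named outside that rule were chosen after their values were seen.

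Replicate numbers recur between groups. Deviations of same-numbered libraries correlated above 0.1 in every pair for MK-8722 at 10 mpk against vehicle in cortex (3 pairs, r 0.25 to 0.418). They did so too for medulla against cortex at 10 mpk (3 pairs, r 0.101 to 0.309). In the other comparisons not every pair passed 0.1, as for medulla against cortex under vehicle (3 pairs, r 0.0724 to 0.226). So few pairs cannot show whether same-numbered libraries are related there. Alternatives were another pseudocount (0.1), no filter, rescaling, other fits, depth and number range as terms, and leaving out each library.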

Additional observations from a re-analysis of the deposited data

Results flagged for a closer look

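In obese medulla at 1 mpk of MK-8722, replicate 7 stood apart below the other 4 libraries. The members' median log2(FPKM + 0.5) was 3.23 there. ENSRNOG00000056021 stood at 15.9 FPKM in that library, against 27.3 to 30.1 FPKM in the others, and ENSRNOG00000061376 at 42.9 FPKM, against 76.1 to 94.2 FPKM. In the same group ENSRNOG00000033830 was lowest in replicate 6, at 3.21 FPKM, against 6.65 to 8.60 FPKM. Each gap to the nearest library exceeded the 95% limit of Dixon's test. Of 53 groups of 5 values tested this way, 4 passed, and chance alone passes about 1 in 20. That count is near what chance gives. The flags of replicate 7 come from 1 library, seen through the members' median and through single members, and are not separate passes. By the members' median, replicate 7 was also the lowest medulla library under vehicle (3.23), under enalapril (3.24) and in lean rats (3.30).

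The effect of MK-8722 at 10 mpk differed between medulla and cortex for ENSRNOG00000013290, by 1.81 on the log2 scale, and for ENSRNOG00000011424, by 1.44, in the limma interaction test. Neither passed with the replicate number as a block.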

How the results depend on the processing

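The counts of members higher in medulla moved little with pseudocount, filter, scaling or single libraries, and the drug counts moved with most choices. Of the recomputed counts, 198 stayed within 1.5 times the reported count and 96 did not. Among the rechecks of named IDs, 357 were graded the same and 106 weaker, and no named ID called in a comparison changed sign. The recomputed medians were graded the same in 279 cases and moved in 15. With the 42 members of lean difference of at least 3, tissue counts were 41, 42, 41 and 42, medulla counts 0 for enalapril, 9 for 10 mpk and 7 between doses, cortex counts 1, 2 and 2, and the interaction count 1. With no filter, enalapril gave 0 in medulla and 0 in cortex, the medulla dose contrast 5, cortex at 10 mpk 7 and the cortex dose contrast 8. Rescaling gave 4 for enalapril in medulla, 0 in cortex, and 9 for the cortex dose contrast. With lean libraries added, enalapril gave 22 and 20 and the medulla dose contrast 27. Fits of the compared groups alone gave 13 in medulla and 2 in cortex at 10 mpk, 9 for the medulla doses and 1 for the interaction.

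With the replicate number as a block, enalapril gave 6 in medulla and 51 in cortex, 10 mpk 9 and 24, the medulla dose contrast 2 and the interaction 0; it moved no other count by over 1.5 times. With relative depth as a term, 10 mpk gave 7 and 2, the dose contrasts 6 and 1, and enalapril in cortex 0; with depth and the replicate block, the tissue count at 10 mpk was 96 and its cortex drug count 0. With number range as a term, cortex counts were 14, 8 and 6 (enalapril, 10 mpk, doses), and in the lower range alone 30, 2 and 1, with 1 for the interaction. The causes were not tested.

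Leaving out 1 library gave tissue counts of 156 to 161, 163 to 165, 153 to 156 and 163 to 165 (vehicle, enalapril, 1 mpk, 10 mpk). In medulla it gave 0 to 35 for enalapril, 10 to 34 for 10 mpk and 1 to 29 between doses, in cortex 0 to 36, 5 to 21 and 3 to 30, and for the interactions 0 to 1 and 2 to 5. FPKM values carry no counts, so no interval for depth could be given.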
